A study of Mus musculus with 20 samples.

Results

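RNA tables of wild-type (WT) mouse embryonic fibroblasts were compared within 1 genotype: a table pooled from 3 numbered replicates against the table of 1 unnumbered sample. The comparison took in 4 of the 20 samples of the series and 11720 genes of the 22593 with a value in all 4 RNA tables, namely those with an FPKM (a fragment count normalised for transcript length and sequencing depth) of at least 1 in either WT table. It asks how far RNA differed between fibroblast preparations that carry the same label. Embryonic fibroblasts are connective tissue cells grown out of the body of a mouse embryo. Per the labels, both groups came from C57BL/6 mice, were at passage 10-15, untreated and proliferating, were not transfected, and gave total RNA extracted with TRIzol. The same contrast was taken in the PML knock-out (KO) tables, which have the same strain, passage and handling and the same layout of 3 pooled numbered replicates and 1 unnumbered sample. The series as a whole also profiled chromatin by immunoprecipitation (ChIP) in both genotypes.

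Every value below is 1 number per table, so no replicate test exists and no p is given. Differences are numbered minus unnumbered on the log2(FPKM + 1) scale, which understates the change of low genes, and a gene is called higher or lower where they reach 2-fold. A gene that reached the FPKM minimum in 1 table only could hardly differ the other way, so lists that rest on such genes are given with their number and are read as values, not as counts in a direction. Nothing in the labels says whether the 3 numbered samples were separate cultures or embryos, or that they were prepared together with the unnumbered sample. Culture, RNA preparation, sequencing library and the making of the table go together in this contrast and cannot be told apart. In RNA of whole cultures, fewer cells of a type and less RNA per cell cannot be told apart either.

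As background, fibroblasts secrete the collagens and proteoglycans of connective tissue and keep a record of their place in the body in the Hox genes they express. In culture they divide, react to serum and stiff plastic through the contractile programme of the factors SRF and YAP, and can slow under p53. Cultures grown out of whole embryo tissue can also hold macrophages, muscle and vessel cells in small number. Genes from only 1 parental allele, the imprinted genes such as H19 and Igf2, are strongly expressed in embryonic mesenchyme.

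In WT, 1877 genes were at least 2-fold higher in the numbered table (16% of those compared) and 2402 were at least 2-fold lower (20.5%). A further 7441 differed by less than 2-fold. The median difference was -0.20, with quartiles of -0.87 and 0.56, and 8-fold or more was reached by 138 genes upward and 227 downward. Across 12071 genes with an FPKM of at least 1 in any RNA table, the WT tables had a Pearson correlation of 0.81 on log2(FPKM + 1) and 35.4% of genes lay 2-fold or more apart. The unnumbered WT and KO tables, which differ in genotype, correlated at 0.95 with 5.39% of genes 2-fold or more apart. The numbered WT and KO tables correlated at 0.90 with 20.3% apart.

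**Figure D1:**
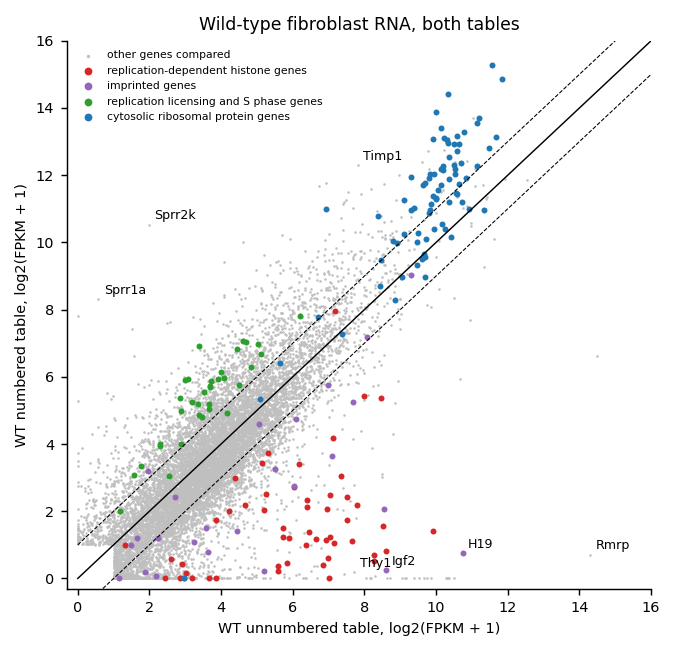
Each point is 1 of the 11720 genes compared, plotted by its level in the unnumbered (x axis) and numbered (y axis) WT table, both as log2(FPKM + 1), with the solid line marking equal levels and the dashed lines 2-fold. Histone and imprinted genes lie mostly below the line, ribosomal protein and replication genes mostly above it, and H19, Igf2, Thy1 and Rmrp lie near the bottom edge while Sprr2k and Sprr1a stand far above the line.

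The WT tables were unlike in total. FPKM summed to 948032 in the numbered and 514537 in the unnumbered WT table, against 409078 and 499754 in KO. Cytosolic ribosomal protein genes took 39.6% of the numbered and 17.8% of the unnumbered WT sum, while small RNA genes took 0.0403% and 11.1%. When both tables were rescaled to the same sum over all genes, the median over all genes moved from -0.20 to -1.003, with 782 genes higher and 5871 lower, so that higher genes made up 11.8% of all calls against 43.9% as reported. Rescaling to the same sum over genes other than ribosomal protein, mitochondrial, histone and small RNA genes put the median at -0.78 and the higher share of calls at 16.2%. Quantile normalization put the median at -0.05, and centring each difference on the median of all genes raised the higher share to 57.3%. In KO the higher share was 36.2% as reported, 52.5% after rescaling to the same sum, 47.1% after the rescaling that set those genes aside, 53.02% after quantile normalization and 53.1% after centring. List medians are therefore best read against the median over all genes, and a list whose own sign turned under a scaling is named as such where it is described.

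The RNAs that differed most are not messenger RNAs with a poly(A) tail. Rmrp, the RNA of the RNase MRP complex that processes ribosomal RNA, had an FPKM of 0.634 in the numbered and 20052 in the unnumbered WT table. Rpph1, the RNA of RNase P that trims transfer RNA precursors, had 96.9 and 22835. Of the 647 small nucleolar, small nuclear and micro RNA genes in the tables, 639 were listed at 0 in the numbered WT table and 617 in the unnumbered one. Only 30 reached the FPKM minimum, 24 of them in the unnumbered table alone, and the median over all 647 was 0. Of the 6 at the minimum in both tables, 3 were lower and 2 higher. The small nucleolar RNAs Snord22, Snora78 and Snord15b were listed at 0 in the numbered table and at 1444, 1319 and 1253 in the unnumbered one. Terc, the RNA template of telomerase, was listed at 0 and at 12.8. In KO Rmrp stood at 1.74 and 12289, and Rpph1 at 13.8 and 14276. How the libraries selected RNA is not given in the sources used here.

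Replication-dependent histone genes, whose messages end in a stem-loop in place of a poly(A) tail and are made in S phase, were lower in 50 of the 52 compared, and in 32 of the 33 that reached the FPKM minimum in both tables. Over all 60 in the tables the median was -3.77, and their summed FPKM was 461 in the numbered and 6346 in the unnumbered WT table. The H4 gene Hist1h4d had 1.68 against 963, Hist1h4c 0.773 against 388, Hist1h4m 0.427 against 309 and the H2B gene Hist2h2bb 0.614 against 307. Hist1h1a, a linker histone gene, was listed at 0 against 128. The exceptions were Hist2h3c2 at 0.993 and 1.49 and Hist1h2bc at 245 and 144 (difference 0.76), named after their values were seen. In KO 53 of 54 were lower, with a median of -3.87 and Hist1h2bc among them at 20.2 and 137. Of 19 nuclear long noncoding RNAs compared, 9 were lower and 5 higher (median -0.81). Among them Malat1, a nuclear speckle RNA, had 60.2 against 1626 and Neat1, the scaffold of paraspeckles, 16.8 against 55.4. The small RNA host Snhg9 was higher at 106 against 13.3, as was Xist, described with the sex-linked genes.

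Histone promoters are shown because their members moved as a block in both genotypes. Of the 48 histone promoters in the table of RefSeq promoters (GRCm38.p6, 250 bases before to 50 after the start), 83.3% held CCAAT on either strand, against 39.2% of the 9353 promoters of genes compared, and 58.3% held TATAAA on either strand, against 7.22%. Over all 27025 promoters of the table these shares were 37.9% and 14.2%. The promoters of Hist1h4d (RefSeq symbol H4c4, chr13:23581318-23581617, + strand) and of Hist1h1a (H1f1, chr13:23763418-23763717, + strand) are given 5′ to 3′ with CCAAT or its reverse complement ATTGG and TATAAA or its reverse complement TTTATA in capitals.
Hist1h4d: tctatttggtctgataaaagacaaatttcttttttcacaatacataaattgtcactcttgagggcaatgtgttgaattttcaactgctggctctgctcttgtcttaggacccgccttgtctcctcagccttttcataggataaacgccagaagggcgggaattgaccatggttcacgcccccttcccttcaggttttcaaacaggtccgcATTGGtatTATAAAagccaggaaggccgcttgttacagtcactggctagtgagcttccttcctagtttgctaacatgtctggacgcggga
Hist1h1a: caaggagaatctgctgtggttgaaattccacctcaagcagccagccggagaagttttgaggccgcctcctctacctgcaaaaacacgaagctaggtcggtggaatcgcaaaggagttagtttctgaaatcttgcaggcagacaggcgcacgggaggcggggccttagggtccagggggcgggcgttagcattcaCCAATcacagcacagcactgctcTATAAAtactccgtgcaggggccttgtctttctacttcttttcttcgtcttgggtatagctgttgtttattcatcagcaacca
A match is a description of letters and not evidence of a bound factor. Among genes at least 8-fold lower, 31.0% of 142 promoters held TATAAA, and 20.9% of 110 did so once histone genes were left out, against 6.95% of all compared genes without histones. Among genes at least 8-fold higher the share was 13.9% of 101.

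Imprinted genes and other genes of embryonic growth were mostly lower in the numbered table, several of them near 0. Of 26 imprinted genes compared, 19 were lower and 1 was higher, with a median of -2.09. Of the 18 at the FPKM minimum in both tables, 11 were lower and 1 was higher. H19, a long noncoding RNA made from the maternal allele, had 0.673 in the numbered and 1708 in the unnumbered table (chr7:142575530-142578146). Igf2, the insulin-like growth factor gene beside it and made from the paternal allele, had 0.183 and 390 (chr7:142650768-142666816). Mest, another paternally expressed gene, had 3.20 and 372, and Cdkn1c, a maternally expressed inhibitor of cell division, 0.171 and 36.0. Igf2r, the receptor that clears IGF2, had 11.5 and 136, and the zinc finger gene Peg3 5.70 and 64.5. Gnas, a signalling subunit, differed by less than 2-fold at 524 and 624, and the single higher member was Peg10, a retrotransposon-derived gene, at 8.16 and 2.86.

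The H19 and Igf2 values were not shared alike with KO. In KO H19 had 0.0541 in the numbered and 1142 in the unnumbered table, as in WT. Igf2 had 35.1 and 372, which is lower than in the unnumbered table but far above the 0.183 of numbered WT. Dlk1, an imprinted gene of immature mesenchyme, went opposite ways, at 1.82 and 11.1 in WT and 119 and 2.03 in KO. The KO median of the imprinted list was -1.28, with 15 of 23 lower and 2 higher.

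Binding proteins of the insulin-like growth factors were also lower in 4 of 6 (median -3.31). Among the 5 at the FPKM minimum in both tables, 3 were lower and 1 higher. Igfbp5 had 0.100 and 52.6, Igfbp4 3.19 and 149, and Igfbp3 5.91 and 208. Igfbp2 had 67.5 and 223 and Igfbp7 549 and 384, while Igfbp6 was higher at 118 and 25.1. Of 50 secreted ligands compared, 24 were lower and 4 higher, with a median of -0.99. Of these, 17 reached the FPKM minimum in the unnumbered table alone, including the lower ligands named next, and 1 in the numbered table alone. Among the 32 at the minimum in both tables, 9 were lower and 3 higher. Dkk3, a member of the Dickkopf family, had 0.288 and 95.9, and Dkk2, a Wnt antagonist, had 0.247 and 25.7. Sfrp2, which modulates Wnt signalling, had 0.0830 and 30.7 and Sema3c, a guidance cue, 0.0579 and 29.5. The higher ligands were Tgfb1 at 34.4 and 8.70, Pdgfa at 108 and 30.3, Pdgfb at 4.66 and 1.11, and Bmp6 at 2.74 and 0.865.

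The 15 largest shortfalls under the rule for named genes included, beside H19, Igf2, Mest and Dkk3, the macrophage gene Lyz2 and the chemokine gene Cxcl1, whose values stand with their groups, and the following. Itm2a, a membrane protein gene, had 0.0440 and 315. Thy1, a surface protein commonly used to recognise fibroblasts, had 0.141 and 210 (chr9:44043384-44048579). Cthrc1, a secreted protein of matrix-producing cells, had 0.0966 and 172. The chemokine gene Cxcl14 was listed at 0 in the numbered table and at 79.8 in the unnumbered one. Gpc3, a cell surface proteoglycan of the embryo, had 0.0146 and 76.3, Penk, an opioid precursor, 0.0900 and 71.8, and Agtr2, an angiotensin receptor of the fetus, 0.0783 and 67.5. Crabp1, a retinoic acid binding protein, had 2.46 and 217, and Lrrc17 had 0.878 and 109.

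In KO, Itm2a had 1.34 and 74.2, Thy1 0.100 and 120.3, Cxcl14 0.0998 and 166, Gpc3 0.104 and 44.1, and Penk 0.740 and 75.7. These genes were thus low in both numbered tables and present in both unnumbered ones. Cthrc1, at 14.6 and 119.9, and Dkk3, at 35.6 and 130, were lower in numbered KO too but well above their numbered WT levels. Counted over protein-coding genes, 171 had an FPKM under 0.5 in the numbered and at least 5 in the unnumbered WT table, and 21 the reverse. Leaving out histones, 158 of the former remained, of which 78 were also under 0.5 in numbered KO and 14 were at 5 or more there.

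Matrix genes were split. Collagen genes of all types were lower in 16 of 28 and higher in 3, with a median of -1.41 in WT and -1.20 in KO. Of the 28, 6 reached the FPKM minimum in the unnumbered table alone, Col8a2 among them, and 1 in the numbered table alone. Among the 21 at the minimum in both WT tables, 11 were lower and 3 higher. Over all 43 collagen genes in the tables the WT median was -0.81. Col3a1, a fibrillar collagen of soft tissue, had 204 in the numbered and 1984 in the unnumbered WT table, and Col1a2, 1 of the chains of type I collagen, 1103 and 3109. Col1a1, the partner chain, had 3354 and 2527, a difference of 0.41. Col12a1, on the surface of collagen fibrils, had 57.2 and 486, Col8a2 0.975 and 90.4, and Col10a1, otherwise known from hypertrophic cartilage, 1.60 and 58.6. The higher members were Col15a1 at 9.07 and 1.12, Col2a1 at 112 and 40.4, and the basement membrane chain Col4a2 at 336 and 149.

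Small leucine-rich proteoglycans, which space collagen fibrils, were lower in 7 of 11 (median -1.80). Among the 10 at the FPKM minimum in both tables, 6 were lower and 2 higher. Ogn had 7.12 and 358, Aspn 13.8 and 294, Lum 5.87 and 100.1, and Dcn 53.1 and 126. Bgn was higher at 2067 and 926, as was Prelp at 54.4 and 9.45. Among 31 other matrix genes, 14 were lower and 2 higher, with a median of -0.60. Of these, 4 reached the FPKM minimum in the unnumbered table alone, Fbn2, Mfap2 and Efemp1 among them, so their direction was fixed by the filter. Among the 27 at the minimum in both tables, 10 were lower and 2 higher. The 5 lowest, picked out after their values were seen, were Eln, the elastin gene, at 3.87 and 103, the fibrillin gene Fbn2 at 0.932 and 72.8, Mfap2 at 0.131 and 48.8, Mfap4 at 3.10 and 170 and Efemp1 at 0.0349 and 53.05. Mfap5, a microfibril gene like Mfap2, was higher at 46.8 and 16.4, as was Ecm1, the other higher member. Fn1, the main adhesive glycoprotein, had 894 and 665. Timp1, an inhibitor of matrix proteases, had 5017 and 225, among the largest excesses of the numbered table, whereas the proteases Mmp3 and Mmp13 were listed at 0 and 0.0687 against 26.3 and 12.2.

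The label of fibroblast was checked against 15 markers, all of which were compared. The numbered table held Vim at 2624, Fn1, Col1a1, Fbln2 at 647 and Pdgfrb at 70.8, but Thy1 at 0.141, Fap at 0.485 and Pdgfra at 4.97. The unnumbered table held all 15, with Fap the lowest at 11.3. Summed FPKM of the 15 was 11605 and 11807. By count 7 were lower and 1, S100a4 at 2074 and 203, was higher, with a median of -0.79, and of -0.21 relative to genes of like span on the chromosome. Among the 13 at the FPKM minimum in both tables, 5 were lower and 1 higher.

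Markers of other cell types were counted beside these results, and their part in them was not tested. Of 20 macrophage markers 19 were compared, 18 of which reached the minimum in the unnumbered table alone. Their summed FPKM was 3.72 in the numbered and 220.4 in the unnumbered WT table. Tyrobp, an adaptor of myeloid receptors, was listed at 0 and 18.1, and the complement genes C1qa, C1qb and C1qc at 0 in the numbered table and at 17.1, 15.2 and 16.8. Lyz2, a lysozyme of macrophages, had 0.155 and 90.2. In all 12 of the 20 markers were listed at 0 in the numbered table and none in the unnumbered one. Endothelial markers summed to 31.0 and 29.1, epithelial markers to 1.81 and 2.33, neural and glial markers to 108 and 102, adipocyte markers to 12.7 and 27.2, mesothelial markers to 2.59 and 10.3 and pluripotency markers to 0.308 and 1.23. Cartilage and bone markers summed to 561 and 1381, and their median of -1.47 turned to 0.26 among protein-coding genes with bodies of at least 10 kb. Myod1 and Myog, the factors that commit cells to skeletal muscle, were listed at 0 in both WT tables, while the 30 skeletal and cardiac muscle markers summed to 288 and 19.9. Smooth muscle and pericyte markers summed to 6515 and 1466, with 4 of 12 higher and 5 lower (median 0.35, turning to -0.32 after rescaling to the same sum).

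Hox genes differed by position within the clusters. These genes lie in clusters in the order in which they are used along the body, with high paralogue numbers used in the hind body and the outer limb. Of 20 compared members of paralogue groups 1 to 8, 19 of which reached the FPKM minimum in both tables, 4 were higher and 3 lower (median 0.10), and their summed FPKM was 155 in the numbered and 104 in the unnumbered WT table. Of the 12 members of groups 10 to 13, 8 were compared, all of which reached the minimum in the unnumbered table alone, so their direction was fixed by the filter. The sums over all 12 were 0.464 and 53.4, and the highest in the numbered table, Hoxc10, had 0.323.

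Within the Hoxa cluster, Hoxa3 was higher at 26.7 and 2.10, Hoxa4 at 7.43 and 1.90 and Hoxa5 at 31.0 and 11.1. At the other end Hoxa9 had 0.125 and 2.55 and Hoxa10 0.140 and 12.8, and Hoxa11 and Hoxa13 were listed at 0 against 4.08 and 5.74. In the Hoxd cluster Hoxd10, Hoxd11, Hoxd12 and Hoxd13 were all listed at 0 in the numbered table, against 3.71, 2.16, 2.44 and 20.9. Hoxb9 had 0.574 and 10.5. The median of all 32 compared Hox genes, -0.74, was 0.13 among members with a body of at least 10 kb.

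Numbered KO had another pattern. It lacked the same ends of Hoxa and Hoxd, with Hoxa13 at 0.0349 and Hoxd13 listed at 0, but held Hoxa10 at 20.2, Hoxb9 at 26.7, Hoxc9 at 13.2 and Hoxc10 at 41.3. The unnumbered KO table had 21.1, 6.28, 1.36 and 0.887 for these 4 and 31.0 for Hoxd13. The unnumbered tables of both genotypes were alike in holding Hoxa13 and Hoxd10 to Hoxd13.

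**Figure D2:**
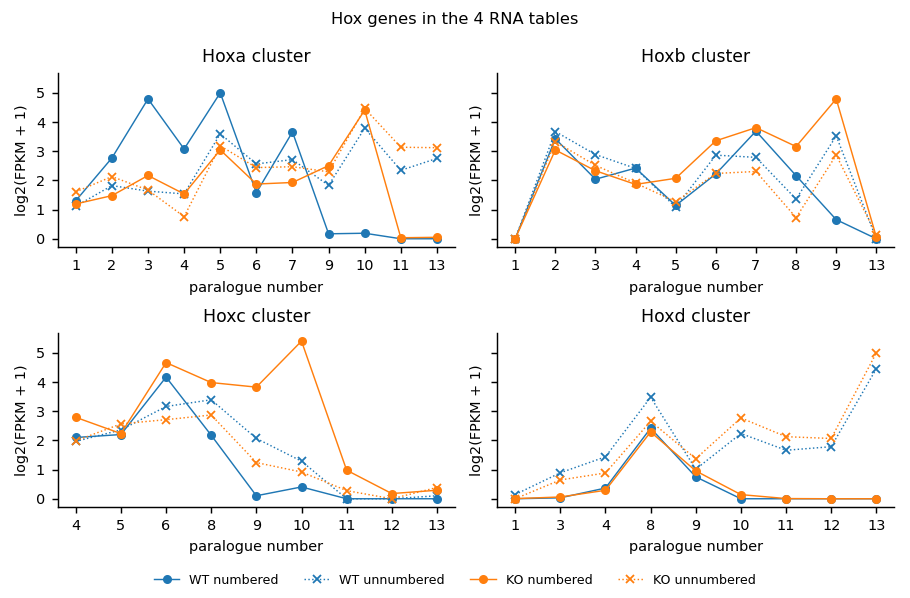
Each panel plots 1 Hox cluster, with the paralogue number on the x axis and log2(FPKM + 1) on the y axis for WT (blue) and KO (orange), circles and solid lines for the numbered and crosses and dotted lines for the unnumbered tables. Numbered WT lies at or near 0 from paralogue 9 on in the Hoxa and Hoxc clusters and from 10 on in Hoxd, where both unnumbered tables climb to Hoxd13.

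Other factors that mark position were lower in 19 of 45 and higher in 9 (median -0.52). Of the 45, 16 reached the FPKM minimum in the unnumbered table alone and 5 in the numbered table alone. Among the 24 at the minimum in both tables, 5 were higher and 4 lower, so the excess of lower members rests on the filter. The lower members named next were all under the minimum in the numbered table. Shox2 and Irx3, used in limb patterning, had 0.635 and 16.04, and 0.306 and 8.09. Tbx4 and Hand2, of the hind limb and of the posterior limb bud, were listed at 0 against 4.08 and 2.63, and Pitx1, another hind limb factor, had 0.0553 and 2.82. Higher members were Prrx2, a homeobox gene of mesenchyme, at 465 and 82.2, Lhx8, used in the face and forebrain, at 5.42 and 0.158, Snai1 at 60.5 and 14.4 and Foxc2 at 41.4 and 10.7.

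Genes of DNA replication were higher in the numbered table in nearly every case. Of 34 licensing and S phase genes, 31 were higher and none lower, with a median of 1.85 and a lowest value of 0.50. Pold1, the catalytic subunit of a replicative polymerase, had 121 and 9.41, Lig1, which joins Okazaki fragments, 59.3 and 6.91, and Gmnn, which prevents a second round of licensing, 60.0 and 7.39. The ribonucleotide reductase subunit Rrm2 had 133 and 23.5, and Slbp, the protein that binds the histone stem-loop, 76.6 and 27.3. In KO 33 of 34 were higher, with a median of 1.85 as well. The median stayed above 1 under each of the 4 scalings of WT tried.

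Mitotic genes were higher in 15 of 29 and lower in none, with a median of 1.01 in WT and 1.69 in KO, and stayed above 0 at 0.18 when the tables were rescaled to the same sum. Ube2c, which marks cyclins for destruction, had 327 and 46.3, Birc5, of the chromosomal passenger complex, 165 and 25.2, and its kinase partner Aurkb 66.8 and 10.4. Mki67, the usual marker of dividing cells, had 31.4 and 13.6, and Ccnb2, a mitotic cyclin, 15.3 and 15.6.

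Targets of p53 were mostly lower while Trp53 itself was higher. Trp53 had 79.4 and 20.3 in WT and 89.3 and 21.9 in KO. Of the 28 genes of the list, which includes Trp53, 16 were lower and 1, Trp53, was higher, with a median of -1.28 in WT and -1.51 in KO. Among the 26 at the FPKM minimum in both WT tables, 14 were lower and 1 higher. Cdkn1a, which halts the cell cycle, had 38.3 and 133, and Ccng1 51.5 and 303. Trp53inp1 had 1.54 and 60.1, Btg2, an antiproliferative gene also induced by serum, 5.49 and 168, and Sesn2, a stress-responsive gene, 3.75 and 49.5. Mdm2, which degrades p53, had 25.8 and 63.9, and Perp was listed at 0 against 6.74. Among cell cycle inhibitors, Cdkn2b had 8.21 and 56.9, while Cdkn2a, the locus of p16 and p19Arf, had 42.8 and 71.2, under 2-fold.

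Immediate-early genes, switched on within minutes by serum or handling, were lower in 13 of 30 and higher in 5 (median -0.83). Among the 26 at the FPKM minimum in both tables, 11 were lower and 3 higher. Fos had 18.5 and 440.1, Fosb 7.24 and 103, Nr4a1 12.3 and 112, and Junb 39.0 and 255. Myc had 37.3 and 12.0, Fosl1, a later member of the Fos family, 3.94 and 0.347, and Egr1 49.4 and 95.9. In KO the median was 0.22 and Egr1 had 80.8 and 14.7.

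Secreted factors of senescent and inflamed cells were divided. Of 28 compared, 12 were lower and 6 higher, with a median of -0.61. Of these, 8 reached the FPKM minimum in the unnumbered table alone, Cxcl1 and Cxcl5 among them, and 1 in the numbered table alone. Among the 19 at the minimum in both tables, 5 were higher and 4 lower. The neutrophil chemokine Cxcl1 was listed at 0 against 58.1, and Cxcl5 had 0.0141 and 40.3. Cxcl12, a chemokine of stromal cells, had 1201 and 381, and Csf1, the growth factor of macrophages, 242 and 63.6. Ccl17, a chemokine that attracts T cells, had 171 in the numbered and 1.84 in the unnumbered WT table and 16.4 and 5.55 in KO.

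Interferon-stimulated genes, the antiviral programme, had opposite medians in the genotypes. Of 27 compared in WT, 18 were lower and 1 higher (median -1.41), and of 35 compared in KO, 24 were higher and none lower (median 1.63). Of the 27 in WT, 15 reached the minimum in the unnumbered table alone, and of the other 12, 5 were lower and 1 higher. How many of the 35 in KO reached it in the numbered table alone was not counted, so the KO count is read with the same limit. Over all 38 in the tables, without a minimum, the medians were -0.96 in WT and 1.35 in KO. The count of 18 lower became 4 with a pseudocount of 5 (median -0.50) and 11 after quantile normalization (median -0.82), and was 5 of 11 with an FPKM minimum of 5. Of the 26 compared in both, 11 were lower in WT and higher in KO. Cxcl10, a T cell chemokine, had 0.299 and 2.49 in WT and 31.7 and 0.124 in KO. Ifit1, which binds viral RNA, had 0.492 and 4.23 in WT and 17.6 and 0.632 in KO, and Usp18, which restrains the interferon receptor, 0.152 and 2.07, and 14.4 and 0.307. Cxcl10, Ifit1 and Usp18 were under the minimum in the numbered WT and the unnumbered KO table, so their directions were fixed by the filter. The exception in WT was Ifi27l1 at 198 and 82.7. By summed FPKM over the list, the numbered table was the higher in both genotypes, at 776 and 608 in WT and 809 and 380 in KO. The unnumbered WT table, the higher of the WT pair by the list median but not by the sum, was also the one that held macrophage markers. Their part in the result was not tested.

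Genes of antigen presentation followed with 8 of 10 lower in WT (median -1.58) and 5 of 10 higher in KO (median 0.86). Of the 10 in WT, 2 reached the FPKM minimum in the unnumbered table alone. Of the other 8, 6 were lower and 1 higher. Over all 15 in the tables, without a minimum, the medians were -1.10 in WT and 0.48 in KO. With a pseudocount of 5, 4 were lower in WT (median -0.84). H2-K1, a class I heavy chain, had 5.55 and 21.5 in WT and 54.8 and 16.7 in KO, Tap1, a peptide transporter, 2.24 and 15.1, and 7.11 and 8.38. Class I heavy chains are close copies of each other, so reads could be split between them. Psmb10, a subunit of the immunoproteasome, stood apart at 109 and 10.5 in WT.

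Promoters of 2 interferon-stimulated genes are shown with the core of the interferon-stimulated response element, GAAA, any 2 bases, GAAA, in capitals on either strand. These 2 had the largest gap between the WT and KO differences among members whose promoter holds the core. Their matches were thus fixed by that choice. The core stood in 12 of 22 promoters of the list (54.5%), in 2.72% of all compared genes, in 7.04% of genes at least 8-fold lower and in 3.49% of all promoters of the table. The windows are Cxcl10 (chr5:92348840-92349139, - strand) and Ifit1 (chr19:34640639-34640938, + strand).
Cxcl10: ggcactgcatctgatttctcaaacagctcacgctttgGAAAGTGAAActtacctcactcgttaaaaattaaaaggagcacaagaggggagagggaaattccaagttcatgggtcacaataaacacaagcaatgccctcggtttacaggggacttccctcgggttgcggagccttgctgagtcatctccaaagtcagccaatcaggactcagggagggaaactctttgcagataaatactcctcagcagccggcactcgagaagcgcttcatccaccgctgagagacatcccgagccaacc
Ifit1: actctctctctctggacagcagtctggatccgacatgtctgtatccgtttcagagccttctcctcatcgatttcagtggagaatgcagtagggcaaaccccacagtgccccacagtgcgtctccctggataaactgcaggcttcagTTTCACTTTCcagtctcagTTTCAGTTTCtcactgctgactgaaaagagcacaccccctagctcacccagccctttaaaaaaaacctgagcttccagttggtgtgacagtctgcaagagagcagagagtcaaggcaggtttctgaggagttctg
Cxcl10 holds 1 match and Ifit1 holds 2.

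Contractile genes were more often higher than lower in the numbered WT table. Of 30 targets of SRF and YAP, 16 were higher and 2 lower, with a median of 1.00 that was 0.12 after rescaling to the same sum, and 0.00 in KO. Actg2, a smooth muscle actin, had 3304 and 105.0 in WT and 429.7 and 149.5 in KO. Ankrd1, a YAP target, had 356 and 21.6, Ctgf, another, 1944 and 324, and Tagln2 520.3 and 73.8. Acta2, the actin of myofibroblasts, had 2876 and 1135 in WT and 1999.7 and 2534 in KO, while Actb, the actin of all cells, had 3799 and 3914 in WT. The lower members were Myh11, the myosin of mature smooth muscle, at 0.231 and 9.44, and Des, a muscle intermediate filament, at 2.70 and 21.7. Of 30 skeletal and cardiac muscle markers 6 were compared, 3 of them at the minimum in the numbered table alone, and the median over all 30 was 0. The 3 at the minimum in both tables were higher, among them the cardiac troponin Tnnt2 at 199 and 4.95 and by Acta1 at 70.5 and 10.4. In KO Acta1 had 6.61 and 43.8.

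Myl9 and Actg1 had the largest WT differences among contractile genes with a CArG box in their promoter, the site known to bind SRF, here 2 C, then 6 of A or T, then 2 G. It stood in 6 of 24 promoters of the list (25%), in 1.38% of all compared genes, in 2.39% of genes at least 2-fold higher and in 1.57% of all promoters of the table. Myl9, a myosin light chain, had 1753 and 349.8 in WT and 281 and 666 in KO, and Actg1, a cytoplasmic actin, 5491 and 1848 in WT and 3114 and 2471 in KO. The windows are Myl9 (chr2:156775214-156775513, + strand) and Actg1 (chr11:120348446-120348745, - strand), with the box in capitals.
Myl9: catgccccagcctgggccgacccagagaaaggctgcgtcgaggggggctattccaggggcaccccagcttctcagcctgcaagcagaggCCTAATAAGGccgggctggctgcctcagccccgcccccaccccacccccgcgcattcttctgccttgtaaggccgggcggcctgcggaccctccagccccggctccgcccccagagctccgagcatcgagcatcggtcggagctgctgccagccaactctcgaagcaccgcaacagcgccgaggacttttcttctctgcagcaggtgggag
Actg1: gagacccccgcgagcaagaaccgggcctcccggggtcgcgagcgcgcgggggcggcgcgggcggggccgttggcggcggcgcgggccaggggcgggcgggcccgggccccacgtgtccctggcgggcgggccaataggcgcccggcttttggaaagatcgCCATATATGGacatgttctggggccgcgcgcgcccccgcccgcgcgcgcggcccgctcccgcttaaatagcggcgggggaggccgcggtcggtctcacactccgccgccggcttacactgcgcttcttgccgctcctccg
The CATTCC letters known from TEAD sites stood in 45.8% of the 24 promoters and in 11.8% of all compared genes.

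The largest excess of the numbered WT table lay in genes of the epidermal barrier. Sprr2k, a small proline-rich protein of the cornified envelope, had 1468 in the numbered and 2.94 in the unnumbered WT table (chr3:92432582-92433927), a difference of 8.54, and 3.08 and 3.69 in KO. Sprr1a, which is also induced in stressed non-epithelial cells, had 317 and 0.488 in WT (chr3:92483954-92485881) and 2.63 and 0.600 in KO. Sprr2g and Sprr2h had 6.32 and 9.23 in numbered WT and were listed at 0 in the unnumbered table. Sprr2 genes are close copies, so their reads could be split or shared. Keratins did not accompany them: Krt10 had 0.592 and 1.09 and Krt19 1.33 and 1.15, and only 2 keratin genes passed the FPKM minimum in WT. The Sprr promoters are shown with the AP-1 letters TGAGTCA or TGACTCA in capitals, for Sprr2k (chr3:92432332-92432631, + strand) and Sprr1a (chr3:92485832-92486131, - strand).
Sprr2k: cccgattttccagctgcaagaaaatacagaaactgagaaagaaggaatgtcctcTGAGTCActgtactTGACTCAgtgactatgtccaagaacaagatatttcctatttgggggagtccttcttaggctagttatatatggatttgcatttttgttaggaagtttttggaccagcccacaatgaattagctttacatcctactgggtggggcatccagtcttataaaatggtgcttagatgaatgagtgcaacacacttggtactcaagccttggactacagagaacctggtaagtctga
Sprr1a: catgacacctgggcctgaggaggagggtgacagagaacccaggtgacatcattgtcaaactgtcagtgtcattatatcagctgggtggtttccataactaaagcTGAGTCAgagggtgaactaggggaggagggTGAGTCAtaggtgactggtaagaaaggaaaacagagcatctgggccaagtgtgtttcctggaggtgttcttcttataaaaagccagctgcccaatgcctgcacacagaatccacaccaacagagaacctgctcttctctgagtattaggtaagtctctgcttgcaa
The 2 promoters were picked by WT difference among Sprr genes whose promoter holds these letters, so a match was fixed by that choice. How many Sprr promoters hold them was not counted. Each of the 2 holds 2 matches. The letters stood in 3.42% of promoters of all compared genes, in 5.94% of those at least 8-fold higher and in 5.17% of all promoters of the table.

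Further genes with a large excess in numbered WT differed in how far KO shared it. Ptgis, the prostacyclin synthase, had 679.8 and 15.9 in WT and 37.5 and 9.39 in KO. Pgp, a phosphoglycolate phosphatase, had 1030.0 and 23.4 in WT and 41.3 and 26.8 in KO, and Bola2, of iron-sulfur protein assembly, 3483 and 121 in WT and 138 and 149 in KO. H1fx, a linker histone gene outside the replication-dependent set, had 192 and 4.63 in WT and 12.2 and 3.10 in KO. Phlda1, a growth factor response gene, was far above its unnumbered level in both, with 96.8 and 1.97 in WT and 99.1 and 2.51 in KO. Npnt, a matrix ligand of integrins, was so as well with 39.8 and 0.887, and 26.7 and 2.85, as was the troponin gene Tnnt2 named above, with 12.6 and 0.138 in KO.

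Short genes were higher and long genes lower in the numbered WT table. Gene body length is the span of the gene on the chromosome in the RefSeq annotation of GRCm38.p6, known for 11678 of the genes compared. With genes cut into 5 groups of body length, from a group median of 4.07 kb to one of 119 kb, the WT medians were 0.20, 0.03, -0.22, -0.32 and -0.51. In the shortest group 30.1% of genes were higher and 20.1% lower, and in the longest 6.46% were higher and 29.8% lower. The KO medians were -0.29, -0.14, -0.17, -0.17 and -0.34, with no such slope. With each gene set against others of like body length, 2159 WT genes were higher and 1786 lower, a higher share of 54.7%, and in KO the higher share was 52.7%.

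**Figure D3:**
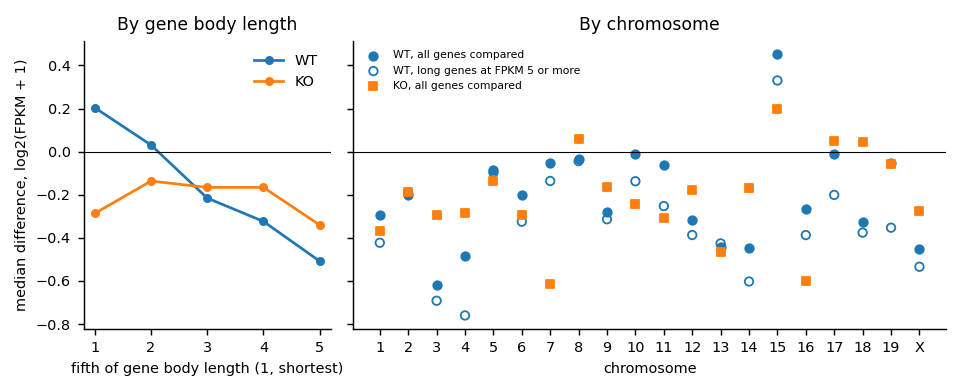
The left panel plots the median numbered minus unnumbered difference of log2(FPKM + 1) against 5 groups of gene body length in WT and KO, and the right panel the same median for each chromosome, with open circles for WT protein-coding genes of at least 20 kb and an FPKM of at least 5. The WT line runs from 0.20 in the shortest to -0.51 in the longest genes, and chromosome 15 stands highest in WT at 0.45.

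Ribosomal protein genes were higher in numbered WT in 54 of 79 and lower in 1, with a median of 1.48, against 0.01 in KO, where 1 was higher and 4 lower. The WT median was 0.19 after quantile normalization and 1.27 among genes of like body length. Rplp2 had 21961 and 1284 in WT and 1181 and 1151 in KO, and Rpl36 15146 and 1019, against 743 and 969 in KO. Not all members shared this: Rpl23 had 501 and 821 in WT. Rpl39l, the single lower member, was listed at 0 against 6.78, and Rplp2 had the largest difference at 4.09. Several of these genes have near-identical copies elsewhere in the genome, between which reads could be split.

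Nuclear genes of the respiratory chain were higher in 43 of 75 and lower in 3 (median 1.17), and 2 were higher and 11 lower in KO (median -0.24). In WT, 19 were higher and 10 lower after rescaling to the same sum (median 0.30), and 26 were higher after quantile normalization (median 0.53). Uqcrq, of complex III, had 2369.7 and 172.6 in WT and 149 and 199 in KO, and Ndufa2, of complex I, 2281 and 169.6 in WT and 156 and 211 in KO. The longer gene Uqcrc2, also of complex III, had 34.2 and 76.0 in WT. Proteasome subunits were higher in 17 of 36 with a median of 0.78, which turned to -0.08 after rescaling to the same sum. Heat shock genes were higher in 7 of 14 and lower in none (median 1.00, and 0.19 after rescaling to the same sum), with the small chaperone gene Hspb1 at 1066 and 118. Glycolysis and hypoxia genes were higher in 7 of 25 and lower in 3 (median 0.52, turning to -0.33 after rescaling to the same sum), and the hypoxia-responsive genes Adm, Bnip3 and Pdk1 were lower, at 1.71 and 35.5, 7.31 and 36.0, and 1.48 and 9.24.

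**Figure D4:**
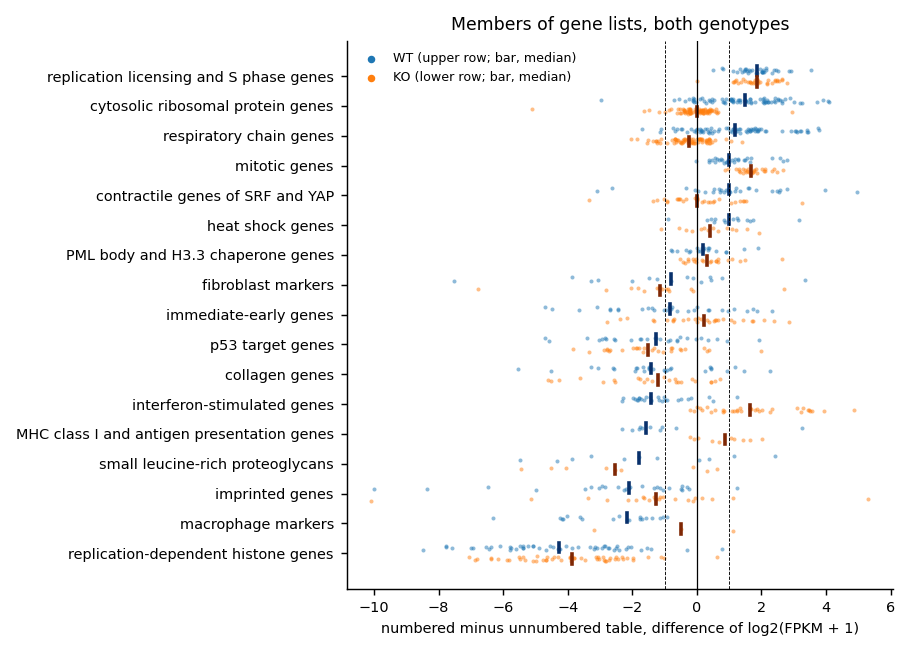
Each row is a gene list, and each point a member plotted at its numbered minus unnumbered difference of log2(FPKM + 1) on the x axis, blue for WT and orange for KO, with bars at the medians and dashed lines at 2-fold. S phase genes lie to the right and histone genes to the left in both genotypes, ribosomal protein genes to the right in WT alone by their medians of 1.48 and 0.01, and interferon-stimulated genes on opposite sides at -1.41 and 1.63.

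Genes of PML bodies and H3.3 deposition, the subject of the series, differed little. Of 21 compared in WT, 19 were under 2-fold, 2 were higher and none lower, with a median of 0.18 that turned to -0.67 after rescaling to the same sum. Pml had 15.0 in the numbered and 7.62 in the unnumbered WT table. Atrx, an H3.3 chaperone subunit, had 9.21 and 16.8, Hira, which places H3.3 at active genes, 9.45 and 9.47, and H3f3a, an H3.3 gene, 203 and 311. The higher members were Asf1b at 22.2 and 5.22, a histone chaperone of dividing cells, and the SUMO protease gene Senp1 at 14.8 and 4.73. Of 23 heterochromatin enzymes and readers, 2 were higher and 5 lower (median -0.08, turning to 0.12 after centring), with Ezh2, the H3K27 methyltransferase of dividing cells, at 31.2 and 9.82 and Ezh1, its counterpart in resting cells, at 1.41 and 4.28. Over all genes compared 16% were higher and 20.5% lower, so the 5 lower members are near the share over all genes.

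Sex-linked RNA differed between the WT tables. Xist, the RNA that silences an X chromosome in female cells, had 19.5 in the numbered and 5.89 in the unnumbered table. The Y-linked genes Ddx3y, Eif2s3y, Kdm5d and Uty had 0.0384, 0.0259, 0.0036 and 0.00966 in the numbered table and 21.7, 21.7, 4.63 and 4.96 in the unnumbered one. Numbered WT thus held next to no Y-linked RNA, and the unnumbered table held both kinds. In KO it was the numbered table that nearly lacked Xist, at 0.0517 against 8.25. The sex composition of the samples goes together with the table and cannot be told apart from the other differences.

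Chromosomes differed in their medians. Of 20 chromosomes (1 to 19 and X), chromosome 15 had the highest WT median, 0.45 over 460 genes, with 33.5% higher and 12.2% lower. Chromosome 3 had the lowest, -0.62 over 591 genes with 33.3% lower, and chromosome 4 followed the same way at -0.48 over 727 genes. Among protein-coding genes of at least 20 kb with an FPKM of at least 5, the values were 0.33, -0.69 and -0.76. In stretches of 20 Mb with at least 20 genes, the medians lay between 0.04 and 0.56 in all 6 stretches of chromosome 15, between -0.93 and -0.43 in the 8 of chromosome 3 and between -0.99 and -0.26 in the 8 of chromosome 4. In KO chromosome 15 was also highest, at 0.20, whereas chromosomes 7 and 16 were lowest at -0.61 and -0.60, against -0.05 and -0.26 in WT. Copy number was not measured in these samples, and its part was not tested.

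The KO contrast shares no table with the WT contrast. In KO 1211 of 11588 genes were higher in the numbered table (10.5%) and 2135 lower (18.4%), with a median of -0.22. Across the 11237 genes compared in both genotypes the differences correlated with a Pearson coefficient of 0.62 and a Spearman coefficient of 0.57, and with 0.56 and 0.56 once ribosomal protein, histone and small RNA genes were left out. Genes are not independent replicates, and those of a table share its library. In all, 607 genes were higher in both genotypes, which is 33.8% of those higher in WT and 54.1% of those higher in KO. Another 1134 were lower in both, 51.7% and 55.6% of the respective sets. Opposite differences were found for 112 genes higher in WT and lower in KO and for 62 the other way.

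Some genes high in both numbered tables had like levels in each. Anp32b, a histone chaperone, had 347 and 15.9 in WT and 366 and 15.7 in KO. Hmga1, a chromatin protein of dividing cells, had 398 and 26.6, and 568 and 41.9. For both genes the unnumbered tables were the low ones in both genotypes.

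Opposite genes included Crip1, a LIM protein, at 608 and 66.8 in WT and 5.07 and 118 in KO, and Mgll, a lipase, at 15.4 and 4.58, and 0.743 and 28.5. Tnfrsf11b, the decoy receptor that restrains osteoclasts, had 55.0 and 19.97 in WT and 8.69 and 82.6 in KO. The other way went Pdpn, a glycoprotein of stromal cells, at 17.9 and 51.9 in WT and 74.4 and 1.51 in KO, and Pdgfra, a receptor of mesenchymal cells, at 4.97 and 23.3, and 20.8 and 2.37. Des had 57.1 and 5.07 in KO against its lower value in numbered WT.

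**Figure D5:**
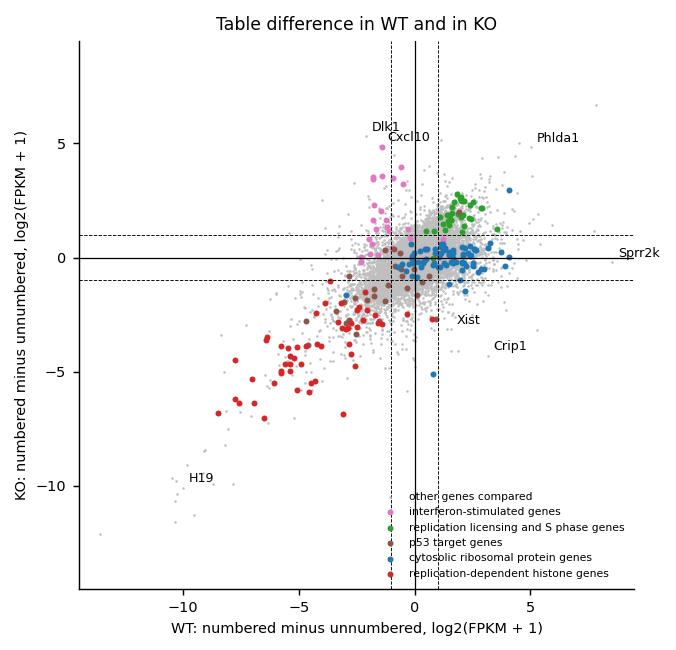
Each point is a gene compared in both genotypes, plotted by its numbered minus unnumbered difference of log2(FPKM + 1) in WT (x axis) and KO (y axis), with dashed lines at 2-fold. Replication and histone genes lie along the diagonal, interferon-stimulated genes in the upper left, and ribosomal protein genes to the right at a KO difference near 0.

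Chromatin marks of WT fibroblasts were set beside the genes, with the ChIP libraries not tied by the labels to either RNA preparation. The mark of Polycomb silencing, H3K27me3, covered at least 0.5 of the gene body in 12.3% of all compared genes. The share was 10.2% of those higher in the numbered table, 25.4% of those lower and 8.67% of those under 2-fold. Among 200 genes with an FPKM under 0.5 numbered and at least 5 unnumbered it was 48.5%, and their start was covered in 58.5% of 118 with a promoter entry, against 15.6% of all. Among the 23 genes of the reverse kind it was 43.5%, so that cover was more frequent than over all genes in both sets. The bodies of H19, Igf2, Itm2a, Gpc3, Cxcl14, Igfbp5, Hoxa10 and Hoxd13 were each covered in full (100% of their length), and those of Thy1, Cthrc1, Dkk3 and Col3a1 had none (0%).

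H3K9me3, the mark of constitutive heterochromatin, covered at least 0.5 of the body in 5.94% of all compared genes, 2.73% of the higher and 10.3% of the lower. H3.3 with a Flag tag, from cells transfected with the tagged histone, covered 35.4% of all, 43.2% of the higher and 28.7% of the lower. It covered 56.9% of the 137 genes at least 8-fold higher and 40.9% of the 225 at least 8-fold lower. H3.3 with an HA tag covered 14.5% of all, 33.6% of those 137 and 29.3% of those 225. Body cover was thus above that of all genes in both 8-fold sets. At gene starts Flag-tagged H3.3 covered 66.7% of the higher and 67.1% of all, with no excess. Regions of H3 itself covered 28.4% of the higher bodies, 18.1% of the lower and 21.97% of all, in the same order as the tagged H3.3. PML covered 0.882% of all, 0.588% of the higher and 2.22% of the lower. These shares are descriptions of region lists with 1 library per antibody.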

How the data were processed

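The RNA tables deposited by the authors hold 1 FPKM value per gene, with 3 numbered replicates in 1 column per genotype and 1 unnumbered sample in another table. Per the submitters' processing notes the build was mm10 and the tools named are Cufflinks 2.2.1 with Cuffdiff 2.2.1, TopHat2 2.0.8b and Bowtie 1.0.0. Which tool pooled the replicates, how RNA was selected and whether strand was counted are not given in the sources used here. Read totals are not in the values, so depth is unknown, no interval or detection limit could be given, and antisense or overlapping genes cannot be separated. The smallest FPKM above 0 was 0.000457 in the numbered and 0.00733 in the unnumbered WT table. In the tables used, 0 columns of single replicates stood beside the pooled ones.

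Lines with more than 1 gene name (267 numbered, 271 unnumbered) were dropped, as were names that recur. Differences were taken on log2(FPKM + 1) for genes with an FPKM of at least 1 in either table, with a call at 2-fold, in Python 3.11.15 with numpy 2.4.6 and pandas 2.3.3. The calculation was tested on simulated data. Of all names, 99.5% matched RefSeq (GRCm38.p6) by symbol or synonym. ChIP regions deposited by the authors were used as intervals only. Named genes were the 15 with the largest WT difference each way, the 10 each way most alike and most opposite in KO, up to 4 per list and 10 defining genes, and others named for their role were picked after values were seen. The comparison and the 49 gene lists were chosen with earlier results of these data known. Alternatives were pseudocounts of 0.1 and 5, an FPKM minimum of 5 or none, 3 rescalings and, chosen after seeing the data, centring and gene body length.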

Additional observations from a re-analysis of the deposited data

Results flagged for a closer look

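The 2 gene lists below had medians on opposite sides of 0 in the genotypes, by numbered minus unnumbered difference of log2(FPKM + 1). The difference between genotypes was not tested, since each table gives 1 value. Interferon-stimulated genes had a median of -1.41 in WT and 1.63 in KO. Members that reached the FPKM minimum in 1 table only had their direction fixed by it, and over all 38 without a minimum the medians were -0.96 and 1.35. Genes of MHC class I and antigen presentation had -1.58 in WT and 0.86 in KO, and -1.10 and 0.48 over all 15 without a minimum. Some of them are also interferon-stimulated, so the lists are not independent. With a pseudocount of 5 the WT medians were -0.50 and -0.84.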

How the results depend on the processing

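No paired analysis was possible because the 3 numbered replicates of each genotype are pooled in 1 column, and for the same reason no replicate could be left out. A filter on spliced length and a correction for spliced length and GC were not run, as no transcript lengths were in the sources used here. With a pseudocount of 5, 1338 WT genes were higher and 935 lower, so that higher genes outnumbered lower ones, unlike as reported. With an FPKM minimum of 5, 1737 WT genes were higher and 1657 lower. In KO a pseudocount of 5 gave 645 higher and 971 lower genes. With that pseudocount 12 lists had a WT median at least 1 from that of all genes, against 20 as reported. Rescaling both tables to the same sum gave 782 higher and 5871 lower WT genes and 1912 higher KO genes, and turned the proteasome median to -0.076. Rescaling over genes other than ribosomal protein, mitochondrial, histone and small RNA genes gave 931 higher and 4801 lower WT genes. Among protein-coding genes with bodies of at least 10 kb, 974 WT genes were higher and 9 lists stood at least 1 from all genes, and the medians of Hox genes and of cartilage and bone markers turned to 0.13 and 0.26. The cause of these shifts was not tested. The WT and KO correlation lay between 0.56 and 0.66 under the alternatives run. Among the 213 named genes, 0 of those at least 2-fold apart as reported turned direction under any of them. Named genes under 2-fold, such as Col1a1, were not counted as turning. Depth is unknown, so values near 0 carry no error.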
